A study of Mus musculus with 23 samples.

Results

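Genes of acid compartments and autophagy were examined in whole mouse hearts as 40 listed genes in 3 classes: 15 genes of the vacuolar proton pump (V-ATPase), 15 lysosomal genes and 10 autophagy genes. They were found by symbol among 55487 gene identifiers, each matched 1 identifier, and all 40 passed the filter on low counts that left 15732 genes to test. The hearts came from wild-type female C57BL/6J mice aged 10 weeks, with the cell type labelled as various, and poly-A RNA was sequenced. LPS day 1 and LPS day 7 hearts were taken 1 and 7 days after 2.5 mg/kg lipopolysaccharide, a component of the bacterial outer membrane that provokes systemic inflammation, and LPS baseline hearts were untreated. ISO day 1 and ISO day 7 hearts were taken 1 and 7 days after 300 mg/kg isoproterenol, an agonist of beta-adrenergic receptors, and ISO baseline hearts were untreated. There were 3 libraries at ISO day 1 and 4 in each other group. The baselines are described as untreated rather than vehicle-injected, so an effect of an agent includes that of its injection.

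The V-ATPase is a rotary pump with a cytosolic sector that hydrolyses ATP (V1) and a membrane sector that moves protons (V0), and it acidifies lysosomes and endosomes. Acid hydrolases such as the cathepsins degrade what endocytosis and autophagy deliver to the lysosome. In autophagy, the Ulk1 kinase complex starts a membrane sac, ATG8 proteins such as LC3 are attached to it, and receptors such as p62 bring in cargo. Transcription factors of the TFEB and TFE3 family, controlled by mTORC1 at the lysosomal surface, activate many genes of these pathways through E-box motifs, and cardiomyocytes rely on autophagy for turnover of mitochondria and proteins.

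Library totals ran between 20910394 and 30368985 estimated reads, with a common biological coefficient of variation of 11%. Cardiomyocyte markers were abundant in each group, as for a heart, and Myh6, the alpha myosin heavy chain, averaged 8700 TPM in the LPS day 1 hearts, where its mean was lowest. LPS day 1 replicates 1 and 2 resembled each other, as did replicates 3 and 4, where a chi-square test of counts over genes, divided by its degrees of freedom, gave 14.01 and 11.04 within these pairs and 32.1 to 48.4 between them. ISO day 7 replicate 3 had the highest fibroblast marker sum of the ISO day 7 libraries, 1063 CPM against 433.5 to 479.7 CPM in the other three. Between LPS baseline and ISO baseline hearts, 0.477% of genes tested were higher and 0.737% lower (edgeR, adjusted p under 0.05), and none of the 40 genes was called, with 7 at an unadjusted p under 0.05. Of all 15732 genes tested, 1701 had an unadjusted p under 0.05 in that comparison. Each library was taken as a separate mouse, since the labels count mice per group. CPM here are counts scaled to a common library size with TMM factors, TPM are the deposited length-scaled values, and a gene is called, or said to rise or fall, when its adjusted p-value over all genes tested is under 0.05.

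Promoter windows from RefSeq (GRCm38.p6; 250 bases before to 50 bases after the annotated start) were matched for 31 of the 40 genes and searched on both strands for the palindromic E-box CACGTG and for GTCACGTG, the longer form bound by TFEB and TFE3, which contains it. CACGTG was found for 11 of 31 genes (35.5%), against 2187 of all 27025 genes in the promoter set (8.09%). GTCACGTG or its reverse complement CACGTGAC was found for 7 of 31 (22.6%), against 689 of 27025 (2.55%). The 27025 genes were not limited to those that passed the count filter, and the part of this in the shares was not tested. By class, the longer form was found for 2 of 11 V-ATPase genes, 5 of 13 lysosomal genes and 0 of 7 autophagy genes. A match is a description of letters in the window and not evidence of binding. The whole windows of the 3 holders with the largest summed day 1 change are shown because they bring the motif beside genes that moved in opposite directions; capitals mark the longer form. They are Gla at chrX:134600956-134601255 (minus strand), Atp6v0d1 at chr8:105566015-105566314 (minus strand) and Mcoln1 at chr8:3500269-3500568 (plus strand).
Gla: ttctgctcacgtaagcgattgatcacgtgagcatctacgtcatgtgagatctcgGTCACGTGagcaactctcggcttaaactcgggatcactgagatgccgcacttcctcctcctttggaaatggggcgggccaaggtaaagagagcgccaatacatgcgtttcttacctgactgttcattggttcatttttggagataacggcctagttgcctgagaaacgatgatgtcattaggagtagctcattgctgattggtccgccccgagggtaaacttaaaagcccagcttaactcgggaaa
Atp6v0d1: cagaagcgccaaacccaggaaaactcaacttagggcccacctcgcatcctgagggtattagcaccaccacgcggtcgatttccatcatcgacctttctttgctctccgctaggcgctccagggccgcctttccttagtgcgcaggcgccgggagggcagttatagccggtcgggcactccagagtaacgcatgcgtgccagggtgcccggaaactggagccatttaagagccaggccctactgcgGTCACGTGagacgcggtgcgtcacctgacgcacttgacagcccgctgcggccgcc
Mcoln1: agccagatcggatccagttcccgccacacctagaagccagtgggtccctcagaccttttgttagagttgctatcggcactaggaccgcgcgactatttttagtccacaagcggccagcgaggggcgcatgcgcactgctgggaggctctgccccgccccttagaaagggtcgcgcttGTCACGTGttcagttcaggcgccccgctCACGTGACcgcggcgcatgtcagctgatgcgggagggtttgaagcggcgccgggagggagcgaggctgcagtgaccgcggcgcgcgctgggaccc
The motif began 196 bases before the start in Gla, 5 bases before it in Atp6v0d1 and, at its first copy, 73 bases before it in Mcoln1, whose window holds a second copy in the other orientation. The other 4 holders are shown as short stretches around the motif, for the sake of its flanks.
Ctsa: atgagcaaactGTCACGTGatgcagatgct
Atp6v0b: tgtgcgcggggGTCACGTGgggtcggcgca
Lamp1: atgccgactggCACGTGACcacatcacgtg
Ctsd: tccccCACGTGACctgtatccagt
Of these 7 genes, Gla and Atp6v0d1 rose at day 1 under both agents and Mcoln1 and Ctsa fell under both. Atp6v0b fell under LPS alone and Lamp1 under ISO alone, and Ctsd was called at day 1 under neither, so genes with the motif did not share a direction. The LPS calls of Gla and Ctsa and the ISO calls of Lamp1 and Mcoln1 were lost under some other settings, as given below.

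In the 8 untreated hearts, levels per length spanned from 501 ± 15.2 TPM for Psap, the precursor of the saposin activators of sphingolipid breakdown, to 0.818 ± 0.420 TPM for Gla, the lysosomal alpha-galactosidase (mean ± SD, n = 8). Ctsd, the aspartic protease cathepsin D, followed Psap at 467 ± 16.0 TPM, and Map1lc3a, an LC3 protein, at 449 ± 29.9 TPM. The ranges over hearts overlapped for 32 of the 39 pairs of neighbours in this order, such as 479 to 529.5 TPM for Psap and 444 to 485 TPM for Ctsd. They did not overlap for 7 pairs, among them Map1lc3a over Lamp1, Lamp1 over Atp6v0c, and Atp6v1a over Gla. Among V-ATPase genes, Atp6v0c, the proteolipid of the proton-carrying ring, had the highest level at 178 ± 11.5 TPM and Atp6v1a, the catalytic subunit, the lowest at 5.74 ± 0.343 TPM. Reads of Atp6v0c may be shared with a near-identical pseudogene, Atp6v0c-ps2, which held 32.8 to 85.8 reads a library against 3730 to 6913 for Atp6v0c.

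At LPS day 1, 19 of the 40 genes rose and 7 fell, and at ISO day 1, 18 rose and 12 fell. So many genes moved at day 1 that these shares are read against the background: 33.2% of genes tested rose and 33.0% fell at LPS day 1, and 32.9% rose and 32.8% fell at ISO day 1. Across both agents, 14 genes rose under each, 4 fell under each, and 4 rose under LPS while falling under ISO. No gene fell under LPS while rising under ISO, and 6 were called under neither. The shares above are for each agent apart. Joint counts over all genes are not given here, so these describe the 40 genes only. On log2(TPM + 0.1) with limma, in place of counts, 17 rose and 7 fell under each agent. The all-gene shares above are from edgeR with TMM, so this split is not read against them.

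**Figure D1:**
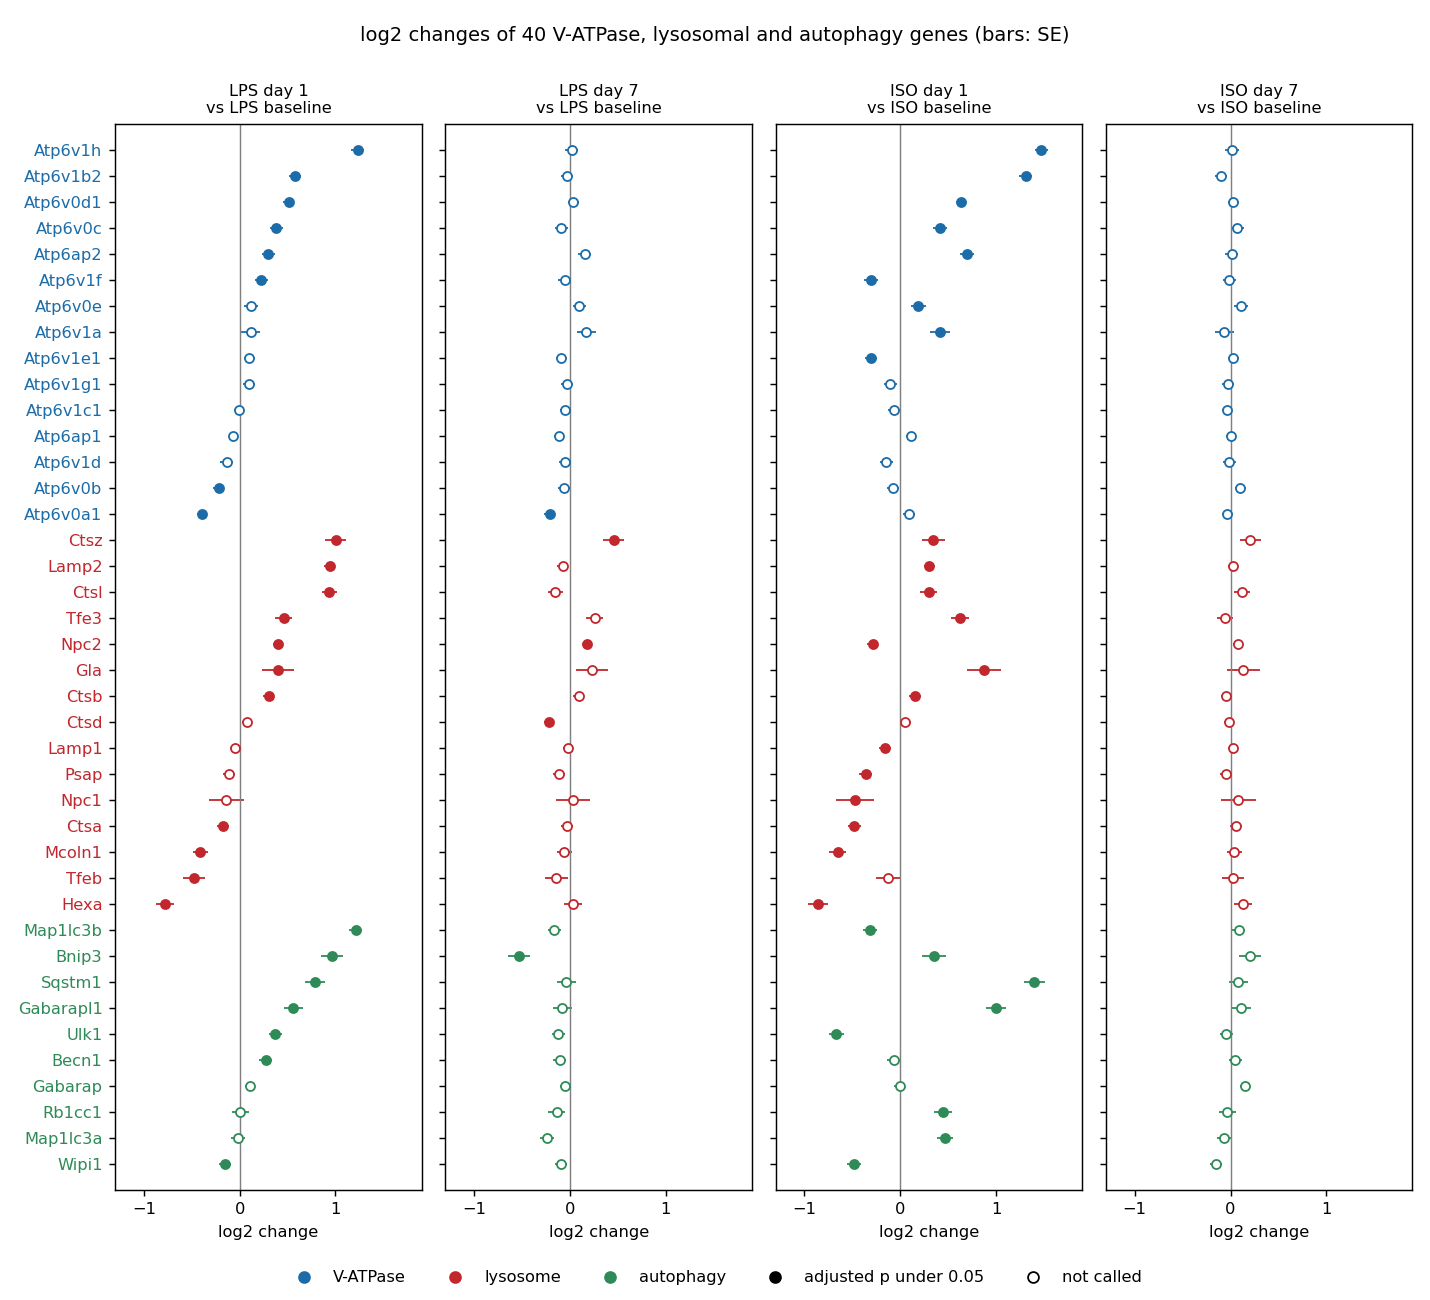
log2 change with its standard error for each of the 40 genes in the LPS day 1, LPS day 7, ISO day 1 and ISO day 7 hearts, each against its own baseline; filled points have an adjusted p under 0.05. Filled points are spread to both sides of 0 at day 1, number 5 at LPS day 7 and are absent at ISO day 7.

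In the V-ATPase class, 6 of 15 genes rose and 2 fell at LPS day 1, with a median log2 change of 0.11, against 0.00 over all genes. At ISO day 1, 7 of 15 rose and 2 fell, with a median of 0.11, against -0.01 over all genes. The changes were uneven between subunits of 1 complex: Atp6v1h and Atp6v1b2 of the V1 sector rose by far more than any other subunit at ISO day 1, while Atp6v1c1, Atp6v1d and Atp6v1g1, also of V1, were not called under either agent, between -0.14 and 0.10. In the V0 sector, Atp6v0c rose by 0.38 at LPS day 1 and 0.41 at ISO day 1, and Atp6v0d1, which links the sectors, by 0.51 and 0.64 (SE 0.06 to 0.07).

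Atp6v1h, the regulatory H subunit that couples ATP hydrolysis to pumping, had 29.9, 27.0, 25.4 and 24.6 CPM in LPS day 1 hearts, against 11.7, 11.5, 11.4 and 10.9 CPM in LPS baseline hearts. It had 33.6, 35.1 and 35.5 CPM in ISO day 1 hearts, against 12.3, 11.7, 13.8 and 12.1 CPM in ISO baseline hearts. Every day 1 heart was above every baseline heart of its arm, with a wide gap under both agents. The log2 change was 1.23 (SE 0.07, adjusted p = 4.37e-13) at LPS day 1 and 1.48 (SE 0.07, adjusted p = 9.46e-14) at ISO day 1. The difference between them, -0.24 (SE 0.10, adjusted p = 0.0577), was not called.

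Atp6v1b2, an isoform of the nucleotide-binding B subunit, had 82.4, 88.7, 67.8 and 75.7 CPM in LPS day 1 hearts, against 52.3, 49.6, 54.6 and 54.6 CPM in LPS baseline hearts. It had 128, 142 and 141 CPM in ISO day 1 hearts, against 54.4, 54.7, 55.8 and 56.5 CPM in ISO baseline hearts. The groups did not overlap in either arm, and the ISO day 1 hearts stood above the LPS day 1 hearts. It rose by 0.58 (SE 0.06, adjusted p = 3.12e-08) at LPS day 1 and by 1.31 (SE 0.07, adjusted p = 1.84e-13) at ISO day 1. The LPS change was smaller by a log2 difference of -0.73 (SE 0.09, adjusted p = 1.21e-06).

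Atp6v0a1, an isoform of the large membrane subunit a, had 69.6, 66.7, 79.6 and 78.1 CPM in LPS day 1 hearts, against 92.5, 96.9, 98.0 and 99.1 CPM in LPS baseline hearts. In ISO day 1 hearts it had 98.9, 104.5 and 101 CPM, against 94.7, 97.3, 91.3 and 96.9 CPM in ISO baseline hearts. The LPS day 1 hearts were all below their baseline, and the ISO day 1 hearts were at or slightly above theirs. It fell under LPS by 0.39 on the log2 scale (-0.39, SE 0.06, adjusted p = 1.52e-06), its ISO change of 0.09 (adjusted p = 0.176) was not called, and the difference of -0.49 (SE 0.08, adjusted p = 5.29e-05) was.

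Atp6v1e1 and Atp6v1f, of the peripheral and central stalks of V1, fell under ISO. Atp6v1e1 had 62.4, 64.4, 57.96 and 58.5 CPM in LPS day 1 hearts, against 55.4, 56.3, 60.3 and 54.9 CPM in LPS baseline hearts. It had 49.6, 46.7 and 56.4 CPM in ISO day 1 hearts, against 61.8, 62.1, 65.2 and 62.4 CPM in ISO baseline hearts. The LPS groups overlapped and the ISO groups did not. Its log2 change was 0.10 (adjusted p = 0.141) at LPS day 1 and -0.31 (SE 0.06, adjusted p = 0.000254) at ISO day 1, and they differed by 0.41 (SE 0.09, adjusted p = 0.000787).

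Atp6v1f had 30.5, 31.2, 26.1 and 25.4 CPM in LPS day 1 hearts, against 24.9, 24.03, 24.9 and 22.9 CPM in LPS baseline hearts. It had 23.4, 21.6 and 23.1 CPM in ISO day 1 hearts, against 29.2, 27.96, 28.8 and 25.99 CPM in ISO baseline hearts. LPS day 1 replicates 3 and 4 were just above the baseline and replicates 1 and 2 well above it, while the ISO day 1 hearts were below theirs. It rose by 0.23 at LPS day 1 (SE 0.07, adjusted p = 0.00573) and fell by 0.30 at ISO day 1 (log2 change -0.30, SE 0.07, adjusted p = 0.00106), a difference of 0.53 (SE 0.10, adjusted p = 0.000225). Its LPS call was lost without LPS day 1 replicates 1 and 2 (0.09, adjusted p = 0.249) and with the baselines pooled (0.12, adjusted p = 0.138).

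Atp6ap2, the accessory protein also called the prorenin receptor, rose by 0.30 at LPS day 1 and 0.70 at ISO day 1, and the difference of -0.40 (SE 0.10, adjusted p = 0.00255) was lost with an offset for effective length (-0.22, adjusted p = 0.219). Atp6v1a rose by 0.41 at ISO day 1 and had 0.11 at LPS day 1 (adjusted p = 0.323), and Atp6v0e, a small membrane subunit, rose at ISO day 1 by 0.19. The Atp6v0e call was lost without ISO day 1 replicate 1 (0.13, adjusted p = 0.18) and without ISO baseline replicate 2 (adjusted p = 0.0784), 3 (adjusted p = 0.0711) or 4 (adjusted p = 0.0507). Atp6v0b, a second kind of proteolipid in the ring, fell by 0.22 at LPS day 1 (log2 change -0.22, SE 0.06). Atp6ap1, the other accessory protein, was not called under either agent (-0.06 and 0.11).

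**Figure D2:**
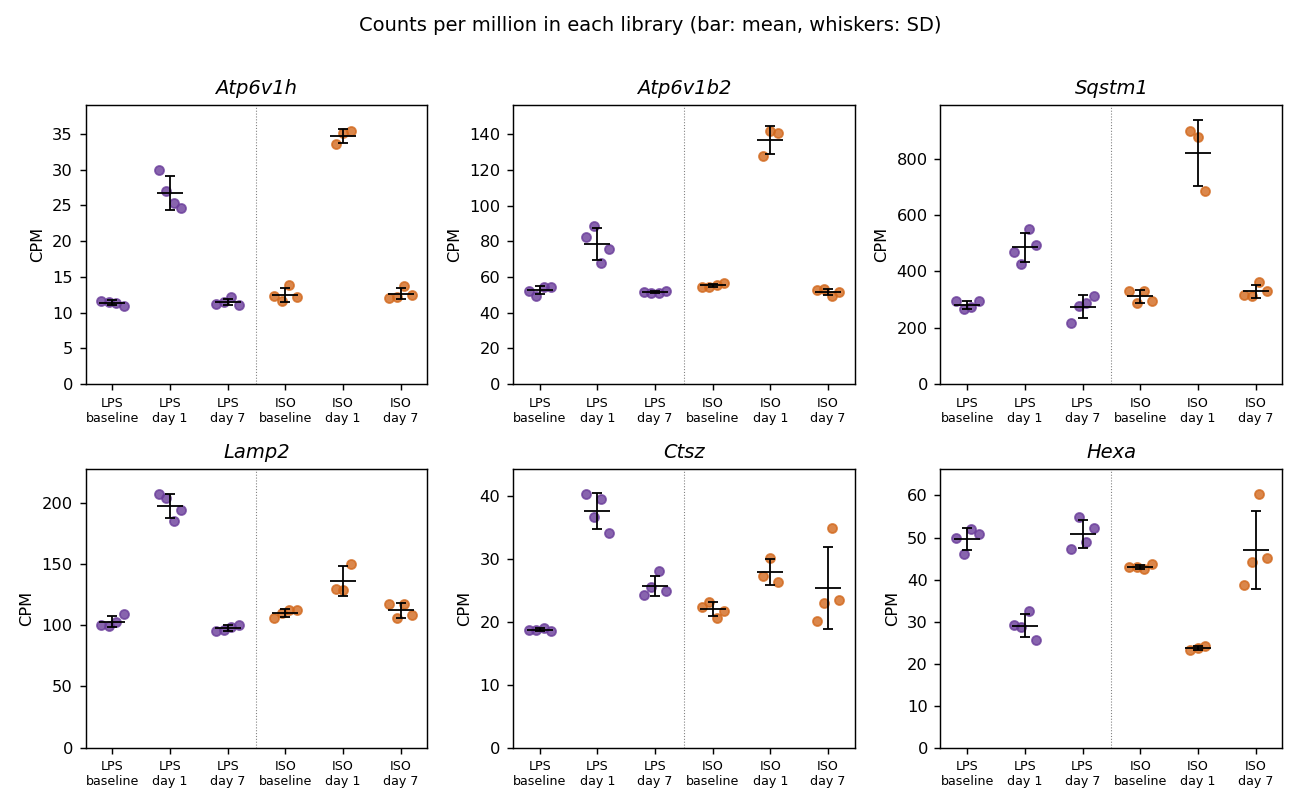
CPM in each library for 6 genes called in the same direction at day 1 under both agents, with LPS groups left of ISO groups, a bar at the group mean and whiskers of 1 SD. Atp6v1h, Atp6v1b2, Sqstm1, Lamp2 and Ctsz are higher at day 1 and Hexa lower, and at day 7 the sole call among them is Ctsz under LPS.

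In the lysosomal class, 7 of 15 genes rose and 4 fell at LPS day 1, with a median log2 change of 0.08, and 6 rose and 7 fell at ISO day 1, with a median of -0.13. The class therefore held genes that moved apart: the proteases Ctsb, Ctsl and Ctsz, the membrane protein Lamp2, the hydrolase Gla and the transcription factor Tfe3 rose under both agents. Hexa, Mcoln1 and Ctsa fell under both. In the test of the difference between agents, 6 lysosomal genes had a more positive change under LPS and 0 a more negative one, where 18.2% of all genes tested were called the first way and 19.5% the second.

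Ctsz, the carboxypeptidase cathepsin Z of myeloid and other cells, had 40.3, 36.6, 39.5 and 34.1 CPM in LPS day 1 hearts, against 18.7, 18.6, 19.1 and 18.6 CPM in LPS baseline hearts. It had 27.3, 30.2 and 26.3 CPM in ISO day 1 hearts, against 22.4, 23.2, 20.7 and 21.7 CPM in ISO baseline hearts. The groups did not overlap in either arm, and the gap was larger under LPS. The log2 change was 1.00 (SE 0.11, adjusted p = 4.03e-08) at LPS day 1 and 0.35 (SE 0.12, adjusted p = 0.014) at ISO day 1, and the difference was 0.66 (SE 0.16, adjusted p = 0.00266). The ISO call was lost without ISO day 1 replicate 2 (0.28, adjusted p = 0.0754) and with library totals (0.33, adjusted p = 0.0659).

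Lamp2, a major glycoprotein of the lysosomal membrane needed for fusion with autophagosomes in the heart, had 207, 204, 185 and 194 CPM in LPS day 1 hearts, against 99.8, 99.7, 102 and 109 CPM in LPS baseline hearts. It had 129.5, 129 and 149.9 CPM in ISO day 1 hearts, against 106, 109.5, 112 and 113 CPM in ISO baseline hearts. The LPS day 1 hearts stood far above their baseline, and the ISO day 1 hearts above theirs by less. It rose by 0.94 (SE 0.06, adjusted p = 1.66e-12) at LPS day 1 and by 0.30 (SE 0.06, adjusted p = 0.000126) at ISO day 1, a difference of 0.64 (SE 0.08, adjusted p = 2.24e-06). Ctsl, the cysteine protease cathepsin L, moved by nearly the same amounts, 0.94 at LPS day 1 and 0.30 at ISO day 1. Lamp1, the other abundant membrane glycoprotein, had -0.05 at LPS day 1 (adjusted p = 0.446) and fell by 0.16 at ISO day 1, a call lost without ISO day 1 replicate 2 (-0.09, adjusted p = 0.21) and without replicate 1 (-0.16, adjusted p = 0.0569).

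Hexa, the alpha subunit of the hexosaminidase that breaks down gangliosides, had 29.2, 28.7, 32.5 and 25.7 CPM in LPS day 1 hearts, against 49.95, 46.1, 51.98 and 50.8 CPM in LPS baseline hearts. It had 23.3, 23.8 and 24.1 CPM in ISO day 1 hearts, against 43.1, 43.0, 42.5 and 43.6 CPM in ISO baseline hearts. Each day 1 heart was well below each baseline heart. It fell by 0.78 at LPS day 1 (-0.78, SE 0.09, adjusted p = 1.79e-07) and by 0.86 at ISO day 1 (-0.86, SE 0.10, adjusted p = 2.04e-07), and the difference of 0.08 (SE 0.14, adjusted p = 0.683) was not called.

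Mcoln1, the lysosomal calcium channel whose promoter is shown, had 14.5, 12.7, 16.2 and 14.4 CPM in LPS day 1 hearts, against 19.7, 18.5, 18.1 and 20.5 CPM in LPS baseline hearts. It had 11.9, 11.3 and 13.7 CPM in ISO day 1 hearts, against 18.8, 18.9, 21.4 and 18.2 CPM in ISO baseline hearts. The groups did not overlap in either arm. It fell by 0.41 at LPS day 1 (-0.41, SE 0.08, adjusted p = 0.000103) and by 0.65 at ISO day 1 (-0.65, SE 0.09, adjusted p = 9.59e-07). On log2(TPM + 0.1) the ISO value was -0.46 (adjusted p = 0.0544).

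Npc2, the soluble partner in export of lysosomal cholesterol, had 46.8, 44.1, 47.7 and 42.4 CPM in LPS day 1 hearts, against 33.2, 32.4, 35.9 and 35.5 CPM in LPS baseline hearts. It had 27.9, 28.4 and 29.3 CPM in ISO day 1 hearts, against 35.4, 34.1, 36.0 and 33.7 CPM in ISO baseline hearts. The agents moved it to opposite sides of the baselines with no overlap. It rose by 0.40 at LPS day 1 (SE 0.05, adjusted p = 5.59e-07) and fell by 0.29 at ISO day 1 (-0.29, SE 0.06, adjusted p = 0.000163), a difference of 0.69 (SE 0.08, adjusted p = 3.55e-07). The ISO fall was lost on log2(TPM + 0.1) (-0.23, adjusted p = 0.0642).

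Of the 2 transcription factors, Tfe3 rose by 0.46 at LPS day 1 (SE 0.09, adjusted p = 7.6e-05) and by 0.62 at ISO day 1 (SE 0.09, adjusted p = 3.69e-06). Tfeb fell by 0.48 at LPS day 1 (-0.48, SE 0.12, adjusted p = 0.0011) and had -0.13 at ISO day 1 (adjusted p = 0.39), and the difference of -0.35 (SE 0.17, adjusted p = 0.115) was not called. Its LPS day 1 values were 19.9, 16.7, 28.1 and 30.6 CPM, against 34.3, 33.4, 32.8 and 32.7 CPM in LPS baseline hearts, so replicates 1 and 2 carried most of the fall. The log2 change was -0.18 (adjusted p = 0.0317) without replicates 1 and 2 and -0.86 (adjusted p = 4.74e-09) without replicates 3 and 4. Npc1, the membrane partner of Npc2, split in the same way at LPS day 1, with 27.7, 25.1, 53.04 and 53.6 CPM, against 44.4, 39.97, 47.9 and 43.8 CPM in LPS baseline hearts. It was not called there (-0.14, adjusted p = 0.515), and its fall at ISO day 1 of 0.47 (-0.47, SE 0.20, adjusted p = 0.0418) was lost without ISO day 1 replicate 1 (adjusted p = 0.0896), 2 (adjusted p = 0.115) or 3 (adjusted p = 0.059) and without ISO baseline replicate 2 (adjusted p = 0.069), 3 (adjusted p = 0.0931) or 4 (adjusted p = 0.0641).

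Among the other lysosomal genes, Psap fell by 0.36 at ISO day 1 (-0.36, SE 0.07) and had -0.11 at LPS day 1 (adjusted p = 0.121). Ctsa, protective protein cathepsin A, fell by 0.17 at LPS day 1 and 0.48 at ISO day 1, and its LPS call was lost without LPS day 1 replicate 3 (-0.13, adjusted p = 0.0873) or 4 (-0.16, adjusted p = 0.0523) or LPS baseline replicate 3 (-0.16, adjusted p = 0.0522). Ctsb, cathepsin B, rose by 0.30 at LPS day 1 (SE 0.06) and 0.16 at ISO day 1 (SE 0.06), the second lost without ISO day 1 replicate 3 (0.13, adjusted p = 0.101) or 1 (0.15, adjusted p = 0.0711) or ISO baseline replicate 3 (0.14, adjusted p = 0.0748). Gla rose by 0.88 at ISO day 1 (SE 0.18, adjusted p = 0.000184). Its rise of 0.40 at LPS day 1 (SE 0.17, adjusted p = 0.0379) was lost with an offset for effective length (0.05, adjusted p = 0.881), while its effective length ran from 1398 to 2911 bases among LPS baseline hearts and from 2888 to 2916 bases among LPS day 1 hearts. The call was also lost without LPS baseline replicate 3 (0.31, adjusted p = 0.128) or 4 (0.38, adjusted p = 0.0734) and without LPS day 1 replicate 1 (0.37, adjusted p = 0.084) or 4 (0.38, adjusted p = 0.0765).

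The macrophage markers were Adgre1, Csf1r, Fcgr1, Mertk, C1qa, C1qb, C1qc and Lyz2. At LPS day 1, 1 of 8 rose, Fcgr1, 4 fell and 3 were not called, and their summed level was 81.2 to 99.4 CPM, against 189.5 to 222 CPM in LPS baseline hearts. At ISO day 1, 0 rose, 5 fell and 3 were not called, and the sum was 134 to 138 CPM, against 193 to 223 CPM in ISO baseline hearts. The neutrophil markers S100a8, S100a9, Csf3r, Cxcr2 and Retnlg had low levels, with 5 of 5 called higher at LPS day 1 and a sum of 6.15 to 10.2 CPM, against 0.434 to 0.632 CPM in LPS baseline hearts, and 4 of 5 called higher at ISO day 1 and a sum of 3.91 to 9.26 CPM, against 0.379 to 0.740 CPM in ISO baseline hearts. Of 6 cardiomyocyte markers, 5 fell at day 1 under each agent. Fibroblast markers had 1 higher and 3 lower of 5 under each agent, endothelial markers 1 and 1 of 4 under LPS and 2 and 1 under ISO, and mural markers 0 and 3 of 4 under LPS and 1 and 3 under ISO. The fibroblast marker that rose was Dcn under LPS and Pdgfra under ISO, where Dcn fell. Tcf21 and Lum fell under both. Lymphocyte markers were near 0, with the sum of 4 T cell markers at 0.308 to 0.669 CPM and of 4 B cell markers at 0.239 to 0.952 CPM in LPS day 1 hearts. In whole-heart RNA, fewer cells of a type and less RNA per cell cannot be told apart, and the part of these cell types in the lysosomal results was not tested.

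In the autophagy class, 6 of 10 genes rose and 1 fell at LPS day 1, with a median log2 change of 0.32, and 5 rose and 3 fell at ISO day 1, with a median of 0.17. Between the agents 9 of the 10 differed, 5 with a more positive change under LPS and 4 with a more negative one, where 18.2% of all genes were called the first way and 19.5% the second. Sqstm1, Gabarapl1 and Bnip3 rose under both agents, Map1lc3b and Ulk1 rose under LPS and fell under ISO, and Wipi1 fell under both.

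Map1lc3b, the LC3B protein used to mark autophagosomes, had 398, 361, 412 and 338 CPM in LPS day 1 hearts, against 160.2, 172, 156 and 163 CPM in LPS baseline hearts. It had 131, 125.5 and 153 CPM in ISO day 1 hearts, against 173, 166, 180.5 and 163 CPM in ISO baseline hearts. The LPS day 1 hearts were all far above their baseline and the ISO day 1 hearts all below theirs. It rose by 1.21 at LPS day 1 (SE 0.07, adjusted p = 5.63e-13), had a log2 change of -0.32 at ISO day 1 (SE 0.07, adjusted p = 0.000576), and differed between agents by 1.53 (SE 0.10, adjusted p = 4.81e-11), the largest difference among the 40 genes. The ISO call was lost with an offset for effective length (-0.15, adjusted p = 0.0816), which averaged 1244 ± 18.2 bases in ISO day 1 hearts (SD, n = 3) and 1424 ± 37.3 bases in ISO baseline hearts (SD, n = 4). It was 1508 ± 40.2 bases in LPS day 1 hearts and 1695 ± 48.2 bases in LPS baseline hearts (SD, n = 4 each).

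Its paralogs moved otherwise. Map1lc3a had -0.02 at LPS day 1 (adjusted p = 0.832) and rose by 0.47 at ISO day 1 (SE 0.08, adjusted p = 2.84e-05), a difference of -0.49 (SE 0.11, adjusted p = 0.00135), so the order of the agents was opposite for the LC3 pair. Gabarapl1, an ATG8 protein of the GABARAP branch, rose by 0.56 at LPS day 1 (SE 0.10, adjusted p = 4.47e-05) and by 1.00 at ISO day 1 (SE 0.11, adjusted p = 3.58e-08). Their difference of -0.44 (SE 0.15, adjusted p = 0.0229) was lost without LPS day 1 replicates 3 and 4 (-0.25, adjusted p = 0.143) and without ISO day 1 replicate 1 (-0.42, adjusted p = 0.0504) or 2 (-0.33, adjusted p = 0.102). Gabarap itself was not called under either agent (0.11 and -0.01).

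Sqstm1, the cargo receptor p62, had 469, 427, 551 and 495 CPM in LPS day 1 hearts, against 294, 266, 274 and 293 CPM in LPS baseline hearts. It had 899, 878 and 687 CPM in ISO day 1 hearts, against 331, 287, 332 and 295 CPM in ISO baseline hearts. No day 1 heart overlapped its baseline, and each ISO day 1 heart exceeded each LPS day 1 heart. It rose by 0.79 at LPS day 1 (SE 0.10, adjusted p = 3.88e-07) and by 1.40 at ISO day 1 (SE 0.11, adjusted p = 1.45e-10), a difference of -0.61 (SE 0.15, adjusted p = 0.00198).

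Ulk1, the kinase that starts autophagosome formation, had 184, 152, 182 and 157 CPM in LPS day 1 hearts, against 130.4, 124, 126 and 141 CPM in LPS baseline hearts. It had 87.1, 79.4 and 83.7 CPM in ISO day 1 hearts, against 128, 127, 141 and 134 CPM in ISO baseline hearts. The groups did not overlap in either arm and lay on opposite sides. It rose by 0.37 at LPS day 1 (SE 0.07, adjusted p = 4.82e-05) and fell by 0.67 at ISO day 1 (-0.67, SE 0.08, adjusted p = 6.45e-08), a difference of 1.04 (SE 0.10, adjusted p = 3.46e-08). Rb1cc1, the scaffold FIP200 of the same kinase complex, showed the reverse order: it rose by 0.45 at ISO day 1 (SE 0.09) and had 0.01 at LPS day 1 (adjusted p = 0.937), a difference of -0.44 (SE 0.13, adjusted p = 0.0091). That LPS value joined 2 pairs of hearts, at 55.8, 49.1, 72.0 and 70.2 CPM, and became 0.21 (adjusted p = 0.00924) without replicates 1 and 2 and -0.23 (adjusted p = 0.00972) without replicates 3 and 4.

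Wipi1, which binds the lipid PI3P on forming autophagosomes, had 80.2, 80.7, 86.0 and 90.1 CPM in LPS day 1 hearts, against 96.8, 98.1, 90.0 and 90.2 CPM in LPS baseline hearts. It had 68.8, 68.1 and 86.2 CPM in ISO day 1 hearts, against 106, 101, 105 and 102 CPM in ISO baseline hearts. The LPS groups overlapped slightly and the ISO groups did not. It fell by 0.48 at ISO day 1 (-0.48, SE 0.07, adjusted p = 4.25e-06), and its smaller LPS fall (-0.15, SE 0.07, adjusted p = 0.0439) was lost without LPS day 1 replicates 1 (-0.13, adjusted p = 0.121), 2 (-0.13, adjusted p = 0.105) or 3 (-0.16, adjusted p = 0.0531) and without LPS baseline replicates 1 (-0.14, adjusted p = 0.0987) or 2 (-0.13, adjusted p = 0.115). Becn1, a core subunit of the lipid kinase that makes PI3P, rose by 0.27 at LPS day 1 (SE 0.07, adjusted p = 0.00118), which was lost with an offset for effective length (0.17, adjusted p = 0.0698), and had -0.06 at ISO day 1 (adjusted p = 0.455). Its difference between agents (0.34, adjusted p = 0.0103) was lost without ISO day 1 replicate 2 (0.24, adjusted p = 0.0528).

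Bnip3, a mitophagy receptor induced by low oxygen, had 166, 162, 194 and 156 CPM in LPS day 1 hearts, against 74.8, 82.9, 98.0 and 90.9 CPM in LPS baseline hearts. It had 85.0, 101 and 108 CPM in ISO day 1 hearts, against 72.0, 75.5, 81.8 and 78.3 CPM in ISO baseline hearts. Day 1 and baseline hearts overlapped in neither arm, and the LPS gap was the wider. It rose by 0.97 at LPS day 1 (SE 0.11, adjusted p = 1.17e-07) and by 0.35 at ISO day 1 (SE 0.12, adjusted p = 0.0154), the second lost without ISO day 1 replicate 3 (0.28, adjusted p = 0.0866). The difference was 0.62 (SE 0.17, adjusted p = 0.00573).

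Over the 3 classes, the agents' day 1 effects differed for 20 of the 40 genes, 13 with a more positive change under LPS and 7 with a more negative one, where 18.2% and 19.5% of all genes were so called. The share with a more negative change was near that of all genes. The median difference was -0.13 in the V-ATPase class, 0.24 in the lysosomal class and 0.22 in the autophagy class, against -0.00 over all genes. The 4 genes called in opposite directions, Map1lc3b, Ulk1, Npc2 and Atp6v1f, came from all 3 classes. Their differences were called too, but opposite calls from the same libraries make that likely, so it adds no separate support. For Map1lc3b and Npc2 the ISO call, and for Atp6v1f the LPS call, was lost under other settings, as given above.

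**Figure D3:**
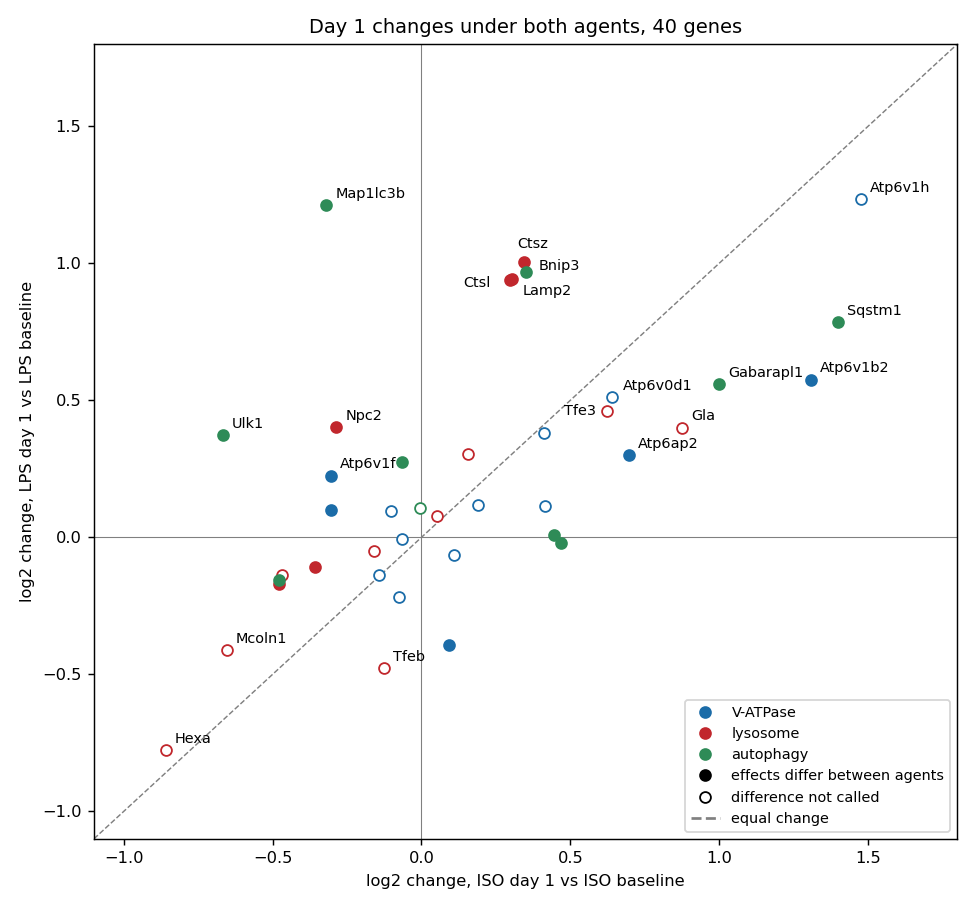
log2 change at LPS day 1 (vertical) against log2 change at ISO day 1 (horizontal) for the 40 genes, with the line of equal change; filled points mark a called difference between the agents. Map1lc3b and Ulk1 lie farthest above the line and Atp6v1b2 and Sqstm1 farthest below it, while Atp6v1h and Hexa lie near it.

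**Figure D4:**
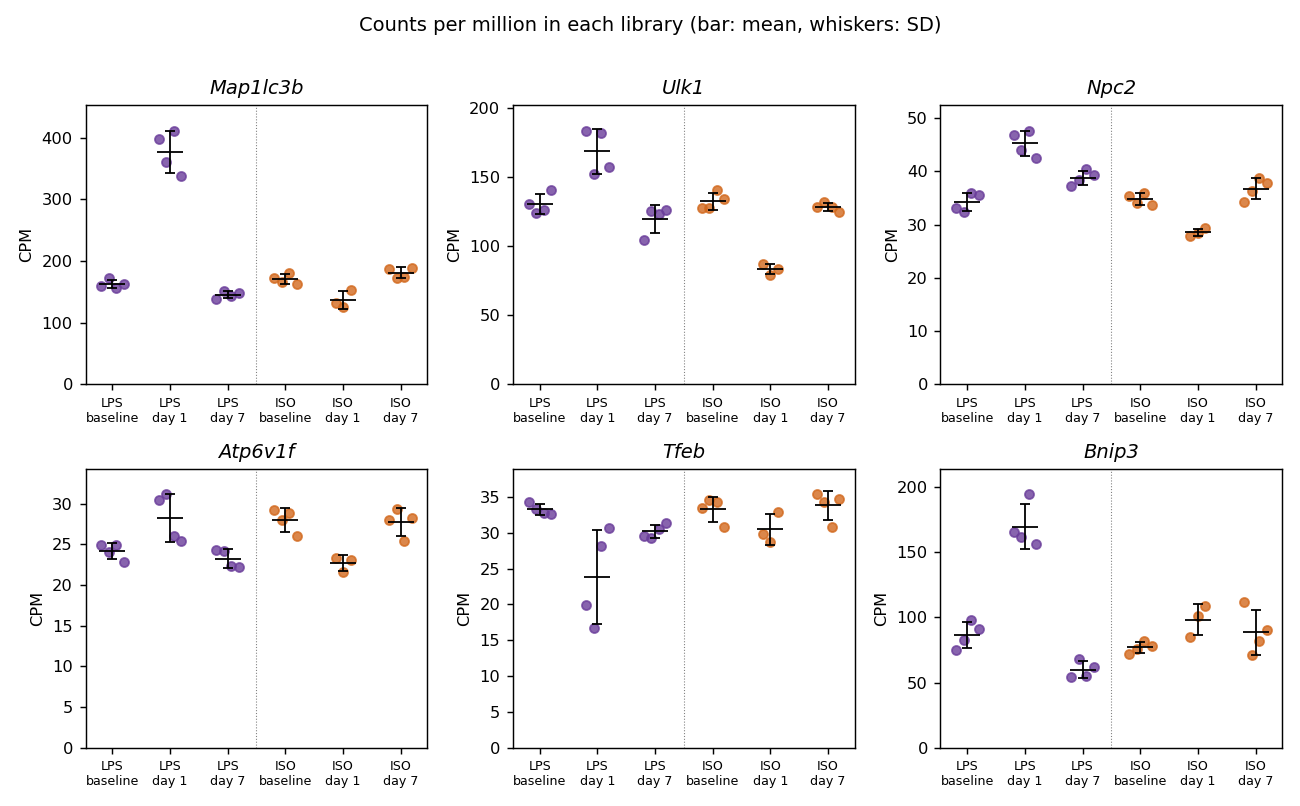
CPM in each library for the 4 genes with opposite day 1 calls and for Tfeb and Bnip3, with LPS groups left of ISO groups, a bar at the mean and whiskers of 1 SD. Map1lc3b, Ulk1, Npc2 and Atp6v1f are above baseline at LPS day 1 and below it at ISO day 1, the LPS day 1 points of Tfeb split into pairs, and Bnip3 is below its baseline at LPS day 7.

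At LPS day 7, 2 of the 40 genes were higher than LPS baseline and 3 lower, where 5.96% of all genes were higher and 3.13% lower. Ctsz and Npc2 were higher, and Atp6v0a1, Ctsd and Bnip3 were lower. Scaling by library totals moved the median log2 change of all genes here to 0.16, and the split of the 40 genes to 6 higher and 1 lower, while log2(TPM + 0.1) moved that median to 0.20 and gave 7 higher and 0 lower. The all-gene shares above are with TMM, so neither of these splits is read against them. Without LPS day 7 replicate 3, of the 5 genes 1 was called, Bnip3. The class medians were -0.05 for V-ATPase, -0.02 for lysosomal and -0.12 for autophagy genes, against 0.00 over all genes. With TMM scaling each of the 10 autophagy genes had a log2 change below 0, and Bnip3 alone among them was called. Changes such as -0.04 for Sqstm1 and -0.05 for Gabarap were smaller than the shift of 0.16 with library totals, so the shared direction is given for TMM scaling only.

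Bnip3 had 54.1, 68.0, 55.1 and 62.0 CPM in LPS day 7 hearts, all below the lowest LPS baseline heart, so it was above baseline at day 1 and below it at day 7. The log2 change was -0.53 (SE 0.12, adjusted p = 0.00549), and -0.30 (adjusted p = 0.14) on log2(TPM + 0.1). In ISO day 7 hearts it had 112, 70.8, 82.2 and 90.1 CPM, overlapping the ISO baseline, and the difference between the agents at day 7 was -0.74 (SE 0.16, adjusted p = 0.0374). It was the sole difference called among the 40 at day 7, where 0.362% of all genes had a more positive change under LPS and 0.0953% a more negative one. That call was lost under 16 of 28 alternative settings. Among these were 11 that each left out a single library, where the value was between -0.76 and -0.61 but was not called.

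Ctsz had 24.3, 25.6, 27.99 and 24.9 CPM in LPS day 7 hearts, all above LPS baseline, with a log2 change of 0.46 (SE 0.11, adjusted p = 0.0122). Npc2 had 37.3, 38.3, 40.4 and 39.3 CPM, also all above, with 0.18 (SE 0.05, adjusted p = 0.0326), lost with an offset for effective length (0.14, adjusted p = 0.244), without LPS day 7 replicate 2 (adjusted p = 0.0554), 3 (adjusted p = 0.116) or 4 (adjusted p = 0.0731) and without LPS baseline replicate 1 (adjusted p = 0.101) or 2 (adjusted p = 0.122). Ctsd had 716, 749, 679 and 762 CPM in LPS day 7 hearts, against 862, 825, 845 and 848 CPM in LPS baseline hearts, a log2 change of -0.22 (SE 0.05, adjusted p = 0.0102). Atp6v0a1 had 89.6, 82.6, 79.9 and 81.6 CPM in LPS day 7 hearts, all below baseline, with -0.21 (SE 0.06, adjusted p = 0.0177). With library totals in place of TMM, Ctsd and Atp6v0a1 had -0.06 each and were not called. Without LPS day 7 replicate 3, Ctsz had 0.41 (adjusted p = 0.0559), Ctsd -0.19 (adjusted p = 0.0564) and Atp6v0a1 -0.19 (adjusted p = 0.0752). The macrophage markers moved with Ctsz and Npc2 here: 7 of 8 rose, with a summed level of 336 to 409 CPM, against 189.5 to 222 CPM at LPS baseline. Some other marker lists had calls as well. T cell markers, at low levels, had 2 of 2 tested higher, neutrophil markers 1 of 5, endothelial markers 1 of 4 and mural markers 1 of 4. Of 6 cardiomyocyte markers, 1 was lower. The part of these cell types in these values was not tested.

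At ISO day 7, none of the 40 genes was called by edgeR, and none by DESeq2 or limma-voom, with 2 at an unadjusted p under 0.05, Gabarap (0.15) and Wipi1 (-0.15). Over all genes, 0.00% were called higher and 0.00636% lower, and 864 of 15732 had an unadjusted p under 0.05 (edgeR). The class medians were 0.01, 0.04 and 0.07 for V-ATPase, lysosomal and autophagy genes, against 0.00 over all genes. ISO day 7 replicate 3 had the highest Hexa, 60.3 CPM against 38.7, 44.2 and 45.2 CPM, and the highest Ctsz, 34.9 CPM against 20.1, 23.01 and 23.5 CPM. It also had the highest macrophage sum, 379.7 CPM against 180.7 to 205 CPM in the other three.

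Day 7 hearts were also set against day 1 hearts of the same agent, a comparison that shares its day 1 libraries with those above. From day 1 to day 7 after LPS, 5 of the 40 genes were higher and 21 lower at day 7, where 33.9% of all genes were higher and 32.5% lower. The V-ATPase class had 2 higher and 6 lower, the lysosomal class 3 and 7, and the autophagy class 0 and 8, with medians of -0.13, -0.17 and -0.44, against 0.01 over all genes. Bnip3 (-1.50), Map1lc3b (-1.38), Atp6v1h (-1.22), Ctsl (-1.09) and Lamp2 (-1.02) were lower by the most at LPS day 7, and Hexa (0.81) was higher. Library totals moved the median of all genes in this comparison to 0.20 and the split of the 40 to 11 higher and 13 lower. The shares of 33.9% and 32.5% are with TMM, so this second split is not read against them.

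After ISO, 14 of the 40 genes were higher and 14 lower at day 7 than at day 1, where 33.2% of all genes were higher and 31.9% lower. By class, 3 V-ATPase genes were higher and 6 lower, 7 lysosomal genes higher and 4 lower, and 4 autophagy genes higher and 4 lower. Atp6v1h (-1.46), Atp6v1b2 (-1.40), Sqstm1 (-1.32) and Gabarapl1 (-0.89) were lower by the most at ISO day 7, and Hexa (0.99), Mcoln1 (0.69) and Ulk1 (0.62) were higher.

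A wider set of 6 lists gave the rest of the pathways, with 142 genes tested. Their counts are read against the all-gene shares, 33.2% higher and 33.0% lower at LPS day 1 and 32.9% higher and 32.8% lower at ISO day 1. Of 39 further lysosomal enzymes, 9 rose and 20 fell at LPS day 1, and 5 rose and 21 fell at ISO day 1, with medians of -0.23 and -0.33. The shares that fell were 51.3% at LPS day 1 and 53.8% at ISO day 1. Manba, lysosomal beta-mannosidase, had 3.87, 4.53, 4.92 and 5.26 CPM in LPS day 1 hearts, against 18.8, 18.4, 19.2 and 18.8 CPM in LPS baseline hearts. It fell by 2.01 at LPS day 1 (-2.01, SE 0.08, adjusted p = 9.69e-16) and by 2.18 at ISO day 1 (-2.18, SE 0.09, adjusted p = 5.79e-15), more than any of the 40 genes. Arsb, arylsulfatase B, fell by 1.08 at LPS day 1 and 1.35 at ISO day 1, and Glb1, lysosomal beta-galactosidase, by 1.33 at ISO day 1.

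Acp5, tartrate-resistant acid phosphatase of osteoclasts and some macrophages, had 2.90, 3.64, 5.67 and 4.61 CPM in LPS day 1 hearts, against 0.109, 0.268, 0.197 and 0.277 CPM in LPS baseline hearts, a log2 change of 4.29 (SE 0.38, adjusted p = 1.22e-09). At LPS day 7, 8 of the 39 enzymes were higher (20.5%) and 2 lower (5.13%), where 5.96% of all genes were higher and 3.13% lower, beside the rise of macrophage markers there. That split moves with scaling: over all genes, 938 higher and 493 lower became 2421 and 90 with library totals. The part of macrophages in these values was not tested.

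Of 22 membrane and sorting genes, 8 rose and 9 fell at LPS day 1, and 5 rose and 13 fell at ISO day 1. The LPS shares of 36.4% and 40.9% were near those of all genes, and at ISO day 1 22.7% rose and 59.1% fell. Sort1, the sorting receptor sortilin, fell by 0.88 at LPS day 1 (-0.88, SE 0.06) and 1.28 at ISO day 1 (-1.28, SE 0.07), and Igf2r, the mannose 6-phosphate receptor that carries new hydrolases to the lysosome, by 1.18 at LPS day 1 (-1.18, SE 0.07) and 0.79 at ISO day 1 (-0.79, SE 0.08). Tpcn1, an endolysosomal cation channel, fell by 0.92 at ISO day 1 (-0.92, SE 0.09), and Cd63, a tetraspanin of late endosomes, rose by 1.19 at LPS day 1 (SE 0.09).

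Of 13 further V-ATPase genes tested, among 18 listed, 4 rose and 5 fell at LPS day 1, and 1 rose and 6 fell at ISO day 1. Tcirg1, the a3 isoform of the membrane subunit known from osteoclasts and immune cells, had 16.3, 13.4, 13.4 and 13.9 CPM in LPS day 1 hearts, against 5.50, 5.62, 5.84 and 5.61 CPM in LPS baseline hearts, a log2 change of 1.34 (SE 0.11, adjusted p = 5.85e-10). Atp6v0a2, the a2 isoform, fell by 0.61 there (-0.61, SE 0.07), and Atp6v0a1 fell as described. Dmxl1, of the complex that helps assemble the pump, fell by 0.91 at LPS day 1 (-0.91, SE 0.08), and its partner Wdr7 by 0.40 at ISO day 1 (-0.40, SE 0.08), as did Rogdi by 0.66 (-0.66, SE 0.12) and Atp6v0e2, an isoform of subunit e, by 0.92 (-0.92, SE 0.12).

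Of 18 genes of TFEB and mTORC1 control, 3 rose and 8 fell at LPS day 1, and 8 rose and 8 fell at ISO day 1. The Rag GTPases, which dock mTORC1 and TFEB at the lysosome, split: Rraga rose by 0.90 at LPS day 1 and 0.55 at ISO day 1, Rragc by 0.73 and 0.57, and Rragd fell by 1.27 at LPS day 1 (-1.27, SE 0.10) and 0.98 at ISO day 1 (-0.98, SE 0.11). Of 35 further autophagy genes, 18 rose and 9 fell at LPS day 1, and 13 rose and 13 fell at ISO day 1. Rab7, the small GTPase of late endosomes, rose by 0.79 at LPS day 1 (SE 0.06) and 0.86 at ISO day 1 (SE 0.06). Atg13, of the Ulk1 complex, rose by 1.09 at ISO day 1 (SE 0.08), where Ulk1 fell, and Atg10, the enzyme that conjugates Atg12, fell by 1.75 (-1.75, SE 0.14). At LPS day 1, where Ulk1 rose, its paralog Ulk2 fell by 0.59 (-0.59, SE 0.05), and Atg4d, a protease that acts on ATG8 proteins, by 0.78 (-0.78, SE 0.07).

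Of 15 cargo receptors and mitophagy genes, 7 rose and 5 fell at LPS day 1, and 4 rose and 6 fell at ISO day 1. Bag3, a co-chaperone that directs damaged muscle proteins to autophagy, rose by 0.76 at LPS day 1 (SE 0.08) and 0.66 at ISO day 1 (SE 0.09). Tax1bp1, a receptor for ubiquitinated cargo, rose by 0.62 at LPS day 1 (SE 0.06) and Ncoa4, the receptor for ferritin, fell by 0.34 (-0.34, SE 0.05). At ISO day 1, Calcoco1, a receptor for the endoplasmic reticulum, fell by 1.14 (-1.14, SE 0.09) and Fundc1, a mitophagy receptor of the outer membrane, by 1.06 (-1.06, SE 0.12). At ISO day 7 none of the 142 wider genes was called by edgeR, with 3 at an unadjusted p under 0.05. Of all 15732 genes tested, 864 had such a p there.

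**Figure D5:**
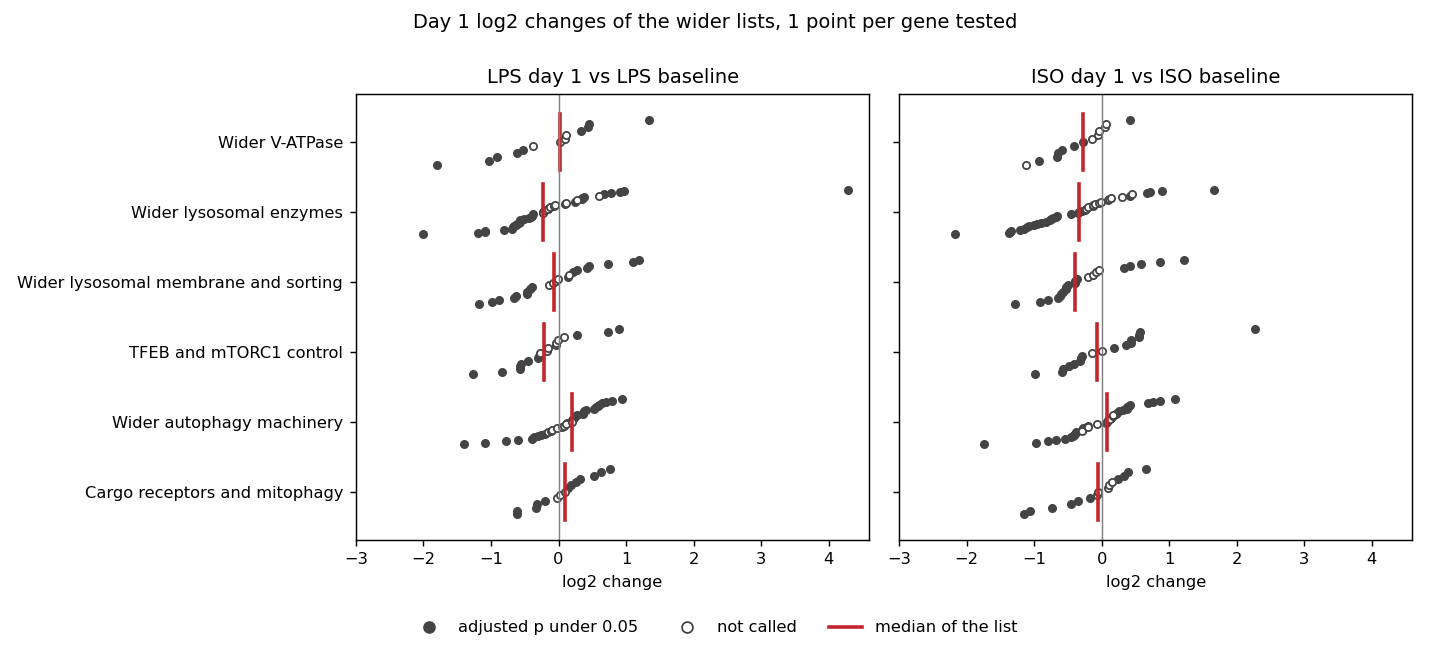
log2 change at LPS day 1 (left) and ISO day 1 (right) of each gene tested in the 6 wider lists, with a red line at the median of the list and filled points where the adjusted p is under 0.05. Both sides of 0 hold filled points in each list, the lysosomal enzymes have medians of -0.23 and -0.33, and Acp5 stands alone at 4.29.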

How the data were processed

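Whole mouse hearts gave 23 poly-A RNA libraries, which the labels put in 6 groups. Per the file headers, the authors deposited for each library an estimated count, a TPM value and an effective length per gene identifier. DRAGEN, bcl2fastq, limma, edgeR and mm10 are named in the submitters' processing notes, without versions. The annotation release was not given in the sources used here, nor was whether counting used strand, so reads of a gene and an antisense partner cannot be told apart. Of 55487 identifiers, 55141 matched symbols of GENCODE M21 (GRCm38), and the others held at most 0.0146% of a library's reads. Library totals were 20910394 to 30368985 reads.

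The deposited estimated counts, 9.5% of them not whole, were rounded. Genes were kept with filterByExpr at a minimum count of 10, scaled by TMM and tested with edgeR's quasi-likelihood test on all 6 groups (R 4.3.3, edgeR 4.0.16), with Benjamini-Hochberg adjustment over 15732 genes and a threshold of 0.05. Every adjusted p-value is from this fit unless another setting or tool is named. Values given for libraries left out, pooled baselines, library totals or the effective length offset are from edgeR refitted that way. Those on log2(TPM + 0.1) are from limma. The fit was also run on simulated counts. There far fewer genes changed than were called at day 1 here, so that run does not cover changes this widespread. The deposited TPM values gave levels between genes and the limma (3.58.1) fits on log2(TPM + 0.1) and log2(TPM + 1), the deposited effective length an offset. Other alternatives were DESeq2 (1.42.0), limma-voom, RLE scaling, library totals, other count filters, mitochondrial genes left out, only the groups compared, pooled baselines, a replicate block, and libraries left out singly or, at LPS day 1, in pairs. Tables and figures were made with Python 3.11.15.

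Genes named with values were, per class, the 2 largest called rises and the 2 largest called falls at day 1 of either agent, genes called in opposite directions, genes called at day 7, and from each wider list the 3 with the smallest adjusted p in each day 1 comparison. Other genes are given by their changes alone, and Tfeb, Npc1, Rb1cc1, Gla and Map1lc3a were described after their values were seen. The members and lists were chosen with earlier results of these data known.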

Additional observations from a re-analysis of the deposited data

Results flagged for a closer look

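Among 200 sets of CPM values tested (40 genes in the 5 groups of 4 libraries), 5 had 1 library far from the others, where chance flags about 1 in 20 sets. Atp6v1a had 23.2 CPM in LPS day 7 replicate 3, against 19.4 to 19.8 CPM in the other three, and Ulk1 had 104.5 CPM in LPS day 7 replicate 1, against 123 to 126 CPM. Ctsa had 111.2 CPM in LPS baseline replicate 2, against 118.1 to 119.4 CPM. Becn1 had 30.5 CPM in ISO baseline replicate 2, against 33.4 to 33.6 CPM, and Atp6v1e1 had 65.2 CPM in ISO baseline replicate 3, against 61.8 to 62.4 CPM.

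The agents' day 1 effects differed for 20 genes, by the LPS log2 change minus the ISO log2 change. The autophagy genes Map1lc3b (1.53), Ulk1 (1.04), Bnip3 (0.62), Becn1 (0.34) and Wipi1 (0.32) had a more positive change under LPS. The lysosomal genes Npc2 (0.69), Ctsz (0.66), Ctsl (0.64), Lamp2 (0.64), Ctsa (0.31) and Psap (0.25) did so too, as did Atp6v1f (0.53) and Atp6v1e1 (0.41) of the proton pump. More negative under LPS were Atp6v1b2 (-0.73), Sqstm1 (-0.61), Atp6v0a1 (-0.49), Map1lc3a (-0.49), Gabarapl1 (-0.44), Rb1cc1 (-0.44) and Atp6ap2 (-0.40). The Psap difference was lost without any 1 of 7 libraries (0.19 to 0.25, adjusted p = 0.0514 to 0.12, edgeR): LPS day 1 replicate 2, LPS baseline replicates 3 and 4, ISO day 1 replicates 1 and 2, and ISO baseline replicates 1 and 3. The Ctsa difference was lost without ISO day 1 replicate 2 (0.26, adjusted p = 0.0513). At day 7 the effects differed for Bnip3 (-0.74), a call lost under most of the alternative settings, as given above.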

How the results depend on the processing

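The 5 of 40 genes called at LPS day 7 became 3 without a count filter, 9 with only the groups compared, 8 with baselines pooled and 1 to 5 with single libraries left out. The 1 gene whose effects differed at day 7 became 0 with library totals, the effective length offset, log2(TPM + 0.1), log2(TPM + 1) or the replicate block, and 0 to 2 with single libraries left out. Counts of genes called ran over all alternatives from 24 to 29 at LPS day 1, from 24 to 31 at ISO day 1 and from 15 to 23 for the day 1 difference, and stayed at 0 at ISO day 7. The labels do not say that replicate numbers pair the samples. Correlations of same-numbered deviations from the group means were -0.15 to 0.10. From so few libraries a group, they cannot exclude a shared day or batch. With the replicate block, the counts were 26 at LPS day 1, 27 at ISO day 1, 6 at LPS day 7, 0 at ISO day 7, 20 for the day 1 difference, 25 for LPS day 7 against day 1 and 28 for ISO day 7 against day 1.

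Direction reversed for Rb1cc1 at LPS day 1 without LPS day 1 replicates 3 and 4 (-0.23) and for Atp6v1g1 at LPS day 7 on either TPM scale (0.17 and 0.17). For LPS day 7 against day 1 it reversed on log2(TPM + 0.1) and log2(TPM + 1) for Atp6v1c1 (0.39 and 0.37), Atp6v1e1 (0.0394 and 0.0387), Atp6ap1 (0.30 and 0.30), Ctsb (0.0769 and 0.0766), Psap (0.24 and 0.24), Map1lc3a (0.0228 and 0.0227) and Gabarap (0.0524 and 0.0521), and with library totals for Atp6ap1 (0.14), Psap (0.19) and Gabarap (0.0275). The cause was not tested. Library totals moved the median of all genes by 0.16 at LPS day 7, and 938 higher and 493 lower calls over all genes became 2421 and 90.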
